A study of Mus musculus with 12 samples.

Results

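Glycolysis and hypoxia response genes, 35 in all, were followed in sorted premalignant pre-B cells of mice, in Smchd1 null against Smchd1 wildtype cells. The genes were chosen by symbol: 21 are glucose transporters, glycolytic enzymes and lactate handling genes, and 14 are other targets or parts of the hypoxia response. On the array they appear under capitals such as ALDOA, BNIP3L, ENO1 and PKM2, and every probe whose symbol equalled a listed one was taken, in all 60 of the 45281 probes. A probe reached 33 of the 35 genes, of 30774 symbols in the deposited table (19 of glycolysis, 14 others), while Hk2 and Ldhb were not analysed here. Each gene is given by its probe of highest mean level. A probe was tested where its signal passed a detection p of 0.05 on at least 3 of the 12 arrays, and 28 of the 33 genes did so, 17 of glycolysis and 11 others.

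The null samples (n = 6) came from mice with both Smchd1 copies carrying a gene trap, and the wildtype samples (n = 6) from mice with normal alleles. All 12 also carried the Eµ-Myc transgene, in which an immunoglobulin heavy chain enhancer drives Myc in B-lineage cells, on a C57BL/6 background, so every comparison is made in cells with forced Myc. Cells were taken fresh from the animals and sorted, and each sample was read on 1 Illumina mouse expression array. The age of the animals and the markers of the sort are not given in the sources used here. The labels do not say whether a sample is 1 mouse, so the p-values reflect only how these samples vary, which may be technical in part.

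Glycolysis breaks glucose down to pyruvate in the cytosol, and dividing lymphocytes run it at a high rate even with oxygen present. When oxygen is short, prolyl hydroxylases stop marking the transcription factor subunit Hif1a for destruction by the von Hippel-Lindau ubiquitin ligase. The stabilised factor pairs with Arnt and turns on glucose transporters, most glycolytic enzymes, lactate export, vessel growth factors and mitophagy receptors. Myc binds many of the same glycolytic promoters, and in B-cell precursors it is a known driver of Ldha and other enzymes of the pathway.

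Between 15396 and 16587 probes were detected per array, mean intensity was 3.08 to 4.43 times that of the negative controls, and precision is limited by how many arrays there are. Smchd1, by its brightest probe, averaged 5.05 ± 0.35 in null and 9.47 ± 0.14 in wildtype samples (log2 level, SD, n = 6 each), a difference of -4.42. The arrays lay on 2 BeadChips, with 3 of each genotype on either. Some null arrays stood apart in markers of other cells. Pre-B markers (14 of 15 with a probe, 10 to 13 detected on null and 10 to 12 on wildtype arrays) summed to 12157.8 to 28758.5 intensity units in null and 22909.2 to 25648.4 in wildtype samples, lowest in null 5 and highest in null 4. The 12 tested ones averaged -0.51, -0.47, -0.27, 0.52, -1.25 and -0.41 log2 from the wildtype mean in null samples 1 to 6. Wildtype samples lay between -0.20 and 0.097, and every null sample but null 4 lay below them. All 12 were lower in null cells on average, with 0 called. T and NK markers (11 of 13) summed to 1073.31 to 18755.9 in null and 730.605 to 1253.8 in wildtype samples, highest in null 5. Most of the null 5 sum is Cd8b1, at a log2 level of 14.05 there against 8.01 to 9.40 in wildtype samples. Of the 9 tested T and NK markers 8 were higher in null cells and 1, Lck, was lower (difference -0.13), with 0 called. Plasmacytoid dendritic markers (7 of 7) summed to 4233.7 to 23956.9 in null and 3754.97 to 6597.32 in wildtype samples, again highest in null 5. Myeloid markers (18 of 19) summed to 6210.66 to 78985.4 in null and 7377.08 to 12854.7 in wildtype samples, with the top in null 3. Erythroid markers (12 of 12) summed to 571.952 to 6495.38 in null and 1245.2 to 3500.2 in wildtype samples, also with the top in null 3. Plasma cell markers (8 of 8) summed to 12318.7 to 15632.1 in null and 10199.2 to 12094.8 in wildtype samples, so that the genotypes did not overlap. Most of this sum is Mzb1, the brightest of them (mean log2 level 13.34 in null and 13.12 in wildtype samples). Of the 5 tested plasma cell markers 4 were higher in null cells and 1, Irf4, was lower (difference -0.51), with 0 called. Interferon genes (9 of 10) summed to 644.828 to 18154 in null and 616.627 to 1388.74 in wildtype samples. Null 5 was highest for both the plasma cell and the interferon list. Cell cycle markers (12 of 12) summed to 20229.1 to 30196.9 in null and 29451.5 to 32166.3 in wildtype samples. All 10 tested ones were lower in null cells on average, with 0 called. They averaged -0.066, -0.048, -0.16, -0.26, -0.66 and -0.19 log2 from the wildtype mean in null samples 1 to 6, against -0.079 to 0.047 in wildtype samples. Their part in the glycolysis values was not tested. The B-lineage marker Ebf1 was detected on all arrays, but read 7.32 in null 5 against 8.57 to 9.01 in wildtype samples. Pax5 was detected on 3 of 6 null and 4 of 6 wildtype arrays, Dntt on 2 of each and Rag2 on 1 of each. Vpreb2, Cd8a, Gzmb, Ccr9, Cd14, Mmp8, Epb4.2, Rhd, Hemgn, Prdm1, Igj, Tnfrsf17 and Ifit1 were detected on no array. In mixtures of cells, fewer cells of a type and less RNA per cell cannot be told apart.

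Of the 28 tested genes 2 differed between null and wildtype cells by the test, 1 in each list. Aldoa, the muscle-type aldolase that splits fructose bisphosphate, was 1.47 times as high in null as in wildtype cells. Among the other hypoxia genes Bnip3l, a receptor that marks mitochondria for removal, was 1.33-fold lower in null cells. The remaining 26 tested genes did not pass. Calls were made at an adjusted p under 0.05 with limma, Benjamini-Hochberg over all 17607 tested probes, of which 215 passed (1.22%), 94 of them higher (0.534%) and 121 lower (0.687%). In glycolysis 1 of 17 genes was called higher and 0 lower, with 4 at an unadjusted p under 0.05, Hk1 near background among them. Among the other hypoxia genes 0 of 11 were called higher and 1 lower, with 2 at an unadjusted p under 0.05. Over all tested probes 18.1% had an unadjusted p under 0.05, so these counts lie near that share. Both counts of called genes are of 1 gene, too few to set the lists apart from the background.

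The signs leaned one way in the first list. In all 13 of 17 glycolysis genes had a positive difference, with a median of 0.15 and a mean of 0.15 log2. So had 7 of 11 other hypoxia genes, with a median of 0.10 and a mean of 0.075. Over all tested probes 41.8% were positive and the median was -0.036. With the 5 dim genes added the medians were 0.14 over 19 and 0.080 over 14 genes. Hk1, counted among the 13, passed the filter through null arrays alone (3 of 6 null and 0 of 6 wildtype). With detection on at least 6 arrays required, which drops Hk1 and Aldoc, the glycolysis mean was 0.14. Within BeadChip 1 and BeadChip 2 alone the glycolysis mean was 0.19 and 0.11, and the other hypoxia mean 0.17 and -0.022. The lists are described by these counts, with no test of the list itself.

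**Figure D1:**
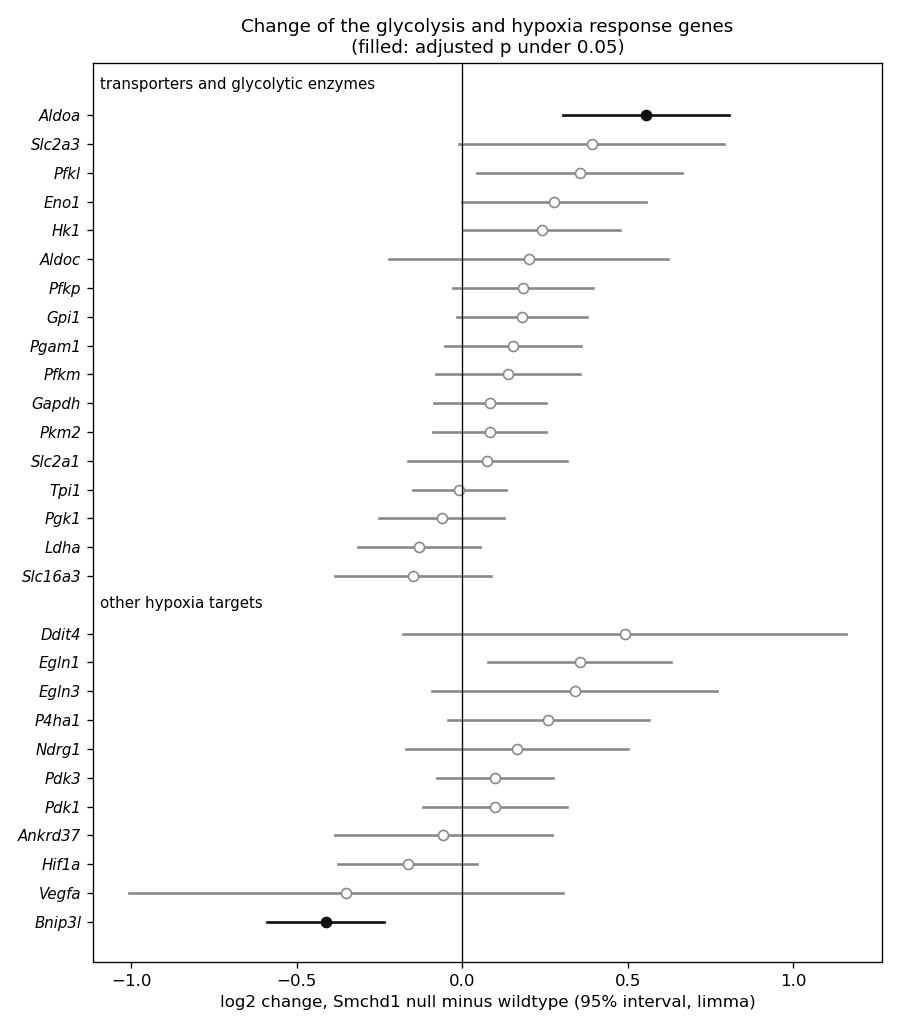
Difference of each of the 28 tested genes in log2 units, null minus wildtype (points), with its 95% interval from limma (lines). Filled points are the 2 genes with an adjusted p under 0.05, Aldoa at 0.55 and Bnip3l at -0.41, and the other 26 did not pass.

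The hypoxia factor binds a short core, written ACGTG or GCGTG, and Myc binds CACGTG, which holds an ACGTG within it. These letters were searched on both strands in the 250 bases before each transcript start in RefSeq (GRCm38.p6). Of the 35 genes 32 have an entry there, all but Slc2a3, Bnip3l and Ndrg1. A hypoxia core is in at least 1 entry of 29 of the 32 genes (90.6%), 17 of 20 in glycolysis and 12 of 12 in the rest, against 41.5% of all 27018 genes. CACGTG is in 5 of the 32, against 6.86% of all genes. Median GC content was 62.8% over the entries of these genes and 52.4% over all entries, and both cores hold a CG. The genes were listed for their part in glycolysis or the hypoxia response, so the share is no test of the list. A gene with more entries also has more chances of a match, and there were 45 entries for the 32 genes and 32841 for all 27018. A match is a description of letters and not a bound site. Shown here, as the 4 genes of smallest p with an entry, are the stretches of Aldoa and, for contrast among genes that were not called, of Egln1, Pfkl and Hk1. Where a gene has several starts, the entry with most matches is given. Capitals mark these hypoxia cores and their reverse complements, and each line reads 5′ to 3′ on the gene's strand.
Aldoa, chr7:126799255-126799504, minus strand: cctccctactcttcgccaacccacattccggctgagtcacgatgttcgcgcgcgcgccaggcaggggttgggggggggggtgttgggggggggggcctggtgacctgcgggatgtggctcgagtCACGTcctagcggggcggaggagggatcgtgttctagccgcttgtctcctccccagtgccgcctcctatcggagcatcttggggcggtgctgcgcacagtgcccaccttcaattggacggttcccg
Egln1, chr8:124949255-124949504, minus strand: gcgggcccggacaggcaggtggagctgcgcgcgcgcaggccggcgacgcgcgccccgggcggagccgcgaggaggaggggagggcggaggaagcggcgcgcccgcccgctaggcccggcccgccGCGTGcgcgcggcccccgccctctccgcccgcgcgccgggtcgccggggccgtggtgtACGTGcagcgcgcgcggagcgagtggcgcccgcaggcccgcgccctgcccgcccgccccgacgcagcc
Pfkl, chr10:78009808-78010057, minus strand: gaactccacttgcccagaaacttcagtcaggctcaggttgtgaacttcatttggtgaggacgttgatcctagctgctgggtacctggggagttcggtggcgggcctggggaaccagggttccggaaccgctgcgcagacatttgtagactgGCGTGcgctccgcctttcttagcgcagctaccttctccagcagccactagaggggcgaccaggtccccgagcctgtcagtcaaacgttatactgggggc
Hk1, chr10:62340422-62340671, minus strand: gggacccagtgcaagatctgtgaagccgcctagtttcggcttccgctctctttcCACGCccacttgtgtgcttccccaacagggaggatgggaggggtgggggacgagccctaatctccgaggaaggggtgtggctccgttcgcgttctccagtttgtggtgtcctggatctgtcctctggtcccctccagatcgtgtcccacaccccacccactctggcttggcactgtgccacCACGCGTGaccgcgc
Aldoa thus holds 1 ACGTG core here, and Egln1, Pfkl and Hk1 hold 2, 1 and 3 cores. Another Aldoa start, farther upstream, has no core in its 250 bases.

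At the entry of the pathway stand the glucose transporters. Slc2a1, the widely expressed transporter and a textbook hypoxia target, had a lowest, median and highest log2 level of 8.28, 8.35 and 8.93 in null cells, against 8.20, 8.39 and 8.53 in wildtype cells. The groups overlapped, with null 6 just above the wildtype range and null 4 farther above (difference 0.075, SE 0.11, limma adjusted p = 0.76). Without null 4 the difference was -0.019. Slc2a3, the high-affinity transporter of lymphocytes and neurons, read 8.90, 9.18 and 10.20 in null cells, against 8.79, 8.90 and 9.21 in wildtype cells. Null 5 was highest and null 3 next (9.47), both of them arrays with raised markers of other cells, whose part was not tested (difference 0.39, SE 0.19, limma adjusted p = 0.29). Hk1, a hexokinase that traps glucose as its phosphate, was detected on 3 of 6 null and 0 of 6 wildtype arrays. It read 4.59 to 5.01 in null and 4.38 to 4.87 in wildtype cells, all close to background, and no fold is given for it (limma adjusted p = 0.27). Gpi1, which turns glucose phosphate into the fructose form, read 11.76 to 12.24 in null and 11.58 to 11.90 in wildtype cells (difference 0.18, limma adjusted p = 0.31). A dimmer Gpi1 probe differed by 0.026.

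The 3 phosphofructokinases carry out the committed step. The liver-type subunit Pfkl had a lowest, median and highest level of 9.82, 9.97 and 10.77 in null cells, against 9.51, 9.75 and 9.93 in wildtype cells. Null 2, 3, 5 and 6 lay just above the wildtype top, null 1 inside its range and null 4 far above (difference 0.35, SE 0.14, limma adjusted p = 0.22). Without null 4 the difference was 0.22, and a dimmer Pfkl probe differed by 0.082. Pfkm, the muscle subunit, differed by 0.14 and Pfkp, the platelet subunit, by 0.18 (limma adjusted p = 0.49 and 0.34). A dimmer Pfkm probe differed by 0.32 (limma adjusted p = 0.18), so no probe of the 3 subunits passed.

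Aldoa was the only glycolytic gene called. Its log2 level was 10.51, 10.52, 10.82, 11.19, 10.98 and 10.88 in null samples 1 to 6, against 10.30, 10.30, 10.34, 10.22, 10.37 and 10.06 in wildtype samples 1 to 6. All null arrays lay above all wildtype arrays, which holds for 1.38% of tested probes. Null 1 and null 2 lay closest to the wildtype top, and null 4 was highest. The means were 10.82 ± 0.26 in null and 10.26 ± 0.11 in wildtype cells (SD, n = 6 each), a difference of 0.55 (SE 0.12, 95% interval 0.30 to 0.80, limma adjusted p = 0.038). On BeadChip 1 alone the difference was 0.71 and on BeadChip 2 alone 0.40. The size held at 0.48 to 0.62 with any 1 array left out, but the adjusted p then ran from 0.022 to 0.098 and passed 0.05 without null 3, 5 or 6 or any 1 wildtype array. The summed plasma cell markers, mostly Mzb1, were likewise higher on every null array than on any wildtype array, while Irf4 of that list was lower. The part of these markers in the Aldoa difference was not tested. The brain-type aldolase Aldoc was near background, at 4.50 to 5.90 in null and 4.57 to 4.95 in wildtype cells, with null 3 and null 5 above the wildtype range and null 4 below it (difference 0.20, limma adjusted p = 0.62).

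**Figure D2:**
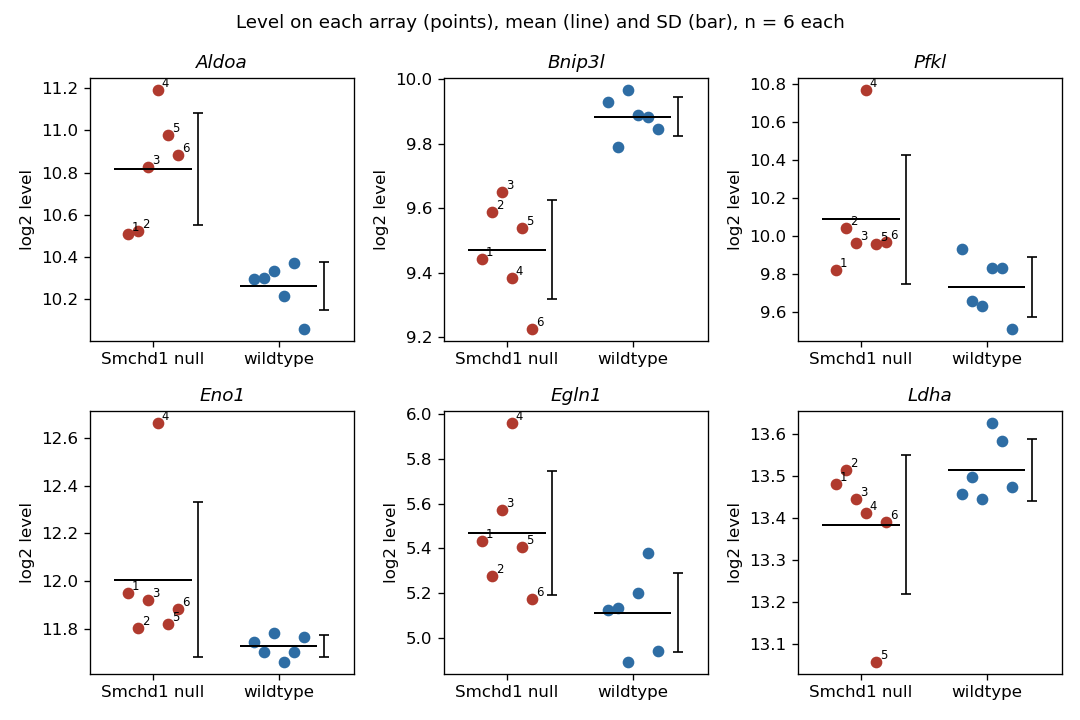
Log2 level of 6 genes on each array, with null samples at left (points numbered by replicate) and wildtype samples at right. Lines are means and bars SDs (n = 6 each). Aldoa and Bnip3l separate the groups, Pfkl, Eno1 and Egln1 have null 4 at the top, and Ldha has null 5 at the bottom.

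None of the enzymes that carry the triose phosphates on to pyruvate passed the test. Tpi1, which interconverts the triose phosphates, averaged 12.89 ± 0.080 in null and 12.89 ± 0.041 in wildtype cells (difference -0.0083, 95% interval -0.15 to 0.13), and its other probes gave -0.047 and 0.13. Gapdh, which oxidises the triose and is often used as a loading control, averaged 13.04 ± 0.14 in null and 12.96 ± 0.062 in wildtype cells (difference 0.084, 95% interval -0.085 to 0.25). Pgk1, the X-linked kinase that makes the first ATP, averaged 11.23 ± 0.16 in null and 11.29 ± 0.10 in wildtype cells (difference -0.062, 95% interval -0.25 to 0.13). All 3 intervals include 0. Pgam1, a mutase, differed by 0.15 and Pkm2, the pyruvate kinase gene under its older symbol, by 0.083 (limma adjusted p = 0.41 and 0.61). A dimmer Pgam1 probe differed by 0.0023 and a dimmer Pkm2 probe by 0.20.

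Eno1, the ubiquitous enolase, separated the groups without passing the test. It read 11.95, 11.80, 11.92, 12.66, 11.82 and 11.89 in null samples 1 to 6, against 11.75, 11.71, 11.78, 11.66, 11.71 and 11.77 in wildtype samples 1 to 6. Every null array lay above every wildtype array, 5 of them by a narrow margin and null 4 by a wide one. The SD was 0.33 in null and 0.045 in wildtype cells, and the difference was 0.28 (SE 0.13, limma adjusted p = 0.28). Without null 4 it was 0.15 (limma adjusted p = 0.26). The neuronal enolase Eno2 was detected on no array.

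At the exit of the pathway Ldha and Slc16a3 had negative differences, as Tpi1 and Pgk1 had earlier in it, and none of these was called. Ldha, the lactate dehydrogenase subunit and a Myc target, had a lowest, median and highest level of 13.06, 13.43 and 13.51 in null cells, against 13.45, 13.49 and 13.62 in wildtype cells. Null 4 and null 6 lay just below the wildtype range and null 5 far below it (difference -0.13, SE 0.086, limma adjusted p = 0.44). Without null 5 the Ldha difference was -0.065. Slc16a3, the lactate exporter, was detected on 3 of 6 null and 4 of 6 wildtype arrays, at 4.73 to 5.15 in null and 4.84 to 5.41 in wildtype cells (difference -0.15, limma adjusted p = 0.50). Slc16a1, another monocarboxylate transporter, was detected on no array.

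Null arrays varied more than wildtype arrays in these genes. The SD was larger in null than in wildtype cells for 16 of 17 glycolysis genes and 9 of 11 other hypoxia genes, and for 74.2% of all tested probes, so most of the array shares this. The mean difference of the 17 glycolysis genes from the wildtype mean was 0.042, 0.14, 0.12, 0.32, 0.24 and 0.048 in null samples 1 to 6 and -0.068 to 0.063 in wildtype samples. Null 4 and null 5 stood out, while null 1 and null 6 lay within the wildtype range.

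Null 4 and null 5 both lay above the wildtype range for Slc2a3, Gpi1, Pfkl, Pfkp, Aldoa and Eno1. Null 4 was the highest of all 12 arrays for 8 of the 17, with Pfkl, Aldoa, Eno1, Gapdh and Slc2a1 among them. Null 5 was the highest for 5, with Slc2a3 and Aldoc among them, and the lowest for 4, with Ldha and Pgk1 among them. The marker means differed between the same arrays. Against the wildtype mean the pre-B markers stood at 0.52 in null 4 and -1.25 in null 5, the cell cycle markers at -0.26 and -0.66, the T and NK markers at 0.53 and 2.20, and the interferon genes at 0.40 and 3.80. Null 4 also had the lowest intensity over the negative controls (3.08 times), and the part of any of these in the glycolysis values was not tested. With null 4 and null 5 left out the glycolysis mean was 0.086, and Aldoa differed by 0.42 (limma adjusted p = 0.058).

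**Figure D3:**
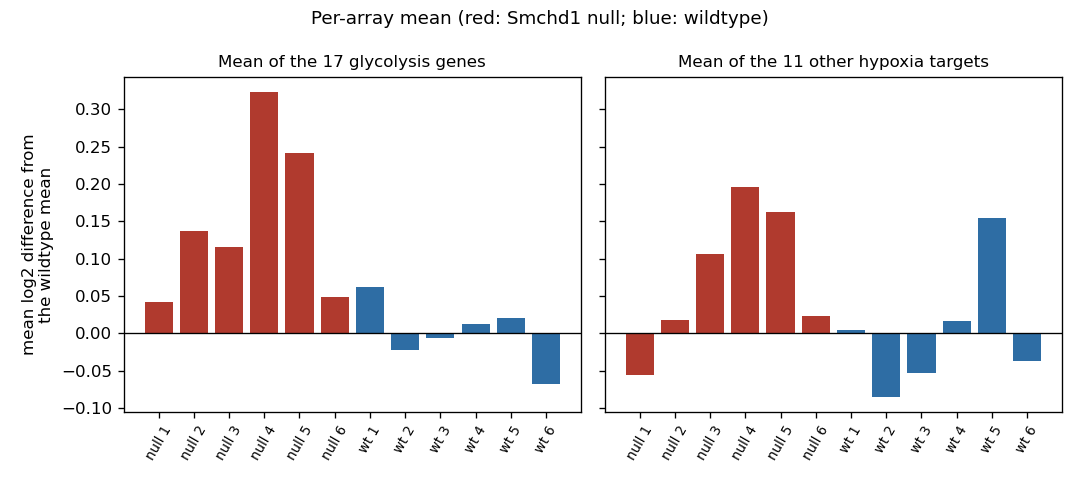
Mean log2 difference from the wildtype mean on each array, for the 17 glycolysis genes (left panel) and the 11 other hypoxia genes (right panel), with null bars in red and wildtype bars in blue. Null 4 (0.32) and null 5 (0.24) lead in glycolysis, and in the other list wildtype 5 (0.15) reaches the level of the higher null arrays.

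The other hypoxia genes gave no common direction. Their per-array mean was -0.055, 0.018, 0.11, 0.20, 0.16 and 0.023 in null samples 1 to 6, against -0.085 to 0.15 in wildtype samples, and the groups overlapped. Egln1, the main prolyl hydroxylase that marks Hif1a for destruction, read 5.17, 5.42 and 5.96 at its lowest, median and highest in null cells, against 4.90, 5.13 and 5.38 in wildtype cells. Null 1, 3, 4 and 5 exceeded the wildtype top, null 4 by most (difference 0.36, SE 0.13, limma adjusted p = 0.18), and a second tested probe differed by 0.26. Egln3, a hydroxylase that is itself a hypoxia target, read 4.78 to 5.90 in null and 4.51 to 5.45 in wildtype cells (difference 0.34, limma adjusted p = 0.39), at -0.13 on BeadChip 2 alone. Hif1a, the regulated subunit, averaged 5.98 ± 0.14 in null and 6.15 ± 0.17 in wildtype cells (difference -0.16, limma adjusted p = 0.39). Its protein, the level that oxygen controls, was not measured.

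Bnip3l was lower in every null sample. It read 9.44, 9.59, 9.65, 9.38, 9.54 and 9.23 in null samples 1 to 6, against 9.93, 9.79, 9.97, 9.89, 9.88 and 9.85 in wildtype samples 1 to 6. The groups did not overlap, with all null arrays below, which holds for 1.63% of tested probes, and null 6 was lowest. Means were 9.47 ± 0.15 in null and 9.88 ± 0.061 in wildtype cells (SD, n = 6 each), a difference of -0.41 (SE 0.082, 95% interval -0.59 to -0.24, limma adjusted p = 0.031). It was -0.51 on BeadChip 1 and -0.31 on BeadChip 2. With any 1 array left out it lay between -0.45 and -0.36, with an adjusted p from 0.027 to 0.081, over 0.05 without null 6 or any 1 wildtype array. Without null 3 and null 5 it was -0.47 (limma adjusted p = 0.023). The part of the other cells' markers in it was not tested. Its close relative Bnip3, another mitophagy receptor and hypoxia target, was detected on no array.

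The targets that vary most in this list varied with single arrays. Ddit4, an inhibitor of mTORC1 induced by low oxygen and stress, had a lowest, median and highest level of 8.09, 8.74 and 10.30 in null cells, against 7.84, 8.33 and 8.91 in wildtype cells. Null 5 was far above the rest (difference 0.49, SE 0.31, limma adjusted p = 0.42), and without it the difference was 0.20. Vegfa, the vessel growth factor, ran the opposite way in the same array, at 4.91, 6.49 and 7.31 in null cells against 6.33, 6.57 and 7.03 in wildtype cells. Null 5 was lowest and null 4 highest of all 12, and the difference of -0.35 (SE 0.31, limma adjusted p = 0.57) became -0.072 without null 5.

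No metabolic or matrix target passed the test. Pdk1 and Pdk3, kinases that shut off pyruvate dehydrogenase, differed by 0.10 each (limma adjusted p = 0.64 and 0.54). P4ha1, a collagen prolyl hydroxylase subunit, differed by 0.26, Ndrg1, a stress-induced gene, by 0.17, and Ankrd37, an ankyrin repeat gene, by -0.057 (limma adjusted p = 0.35, 0.60 and 0.88). P4ha2 was detected on 1 null array, and Ero1l, an oxidase of the secretory pathway, on no array, so neither was tested.

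**Figure D4:**
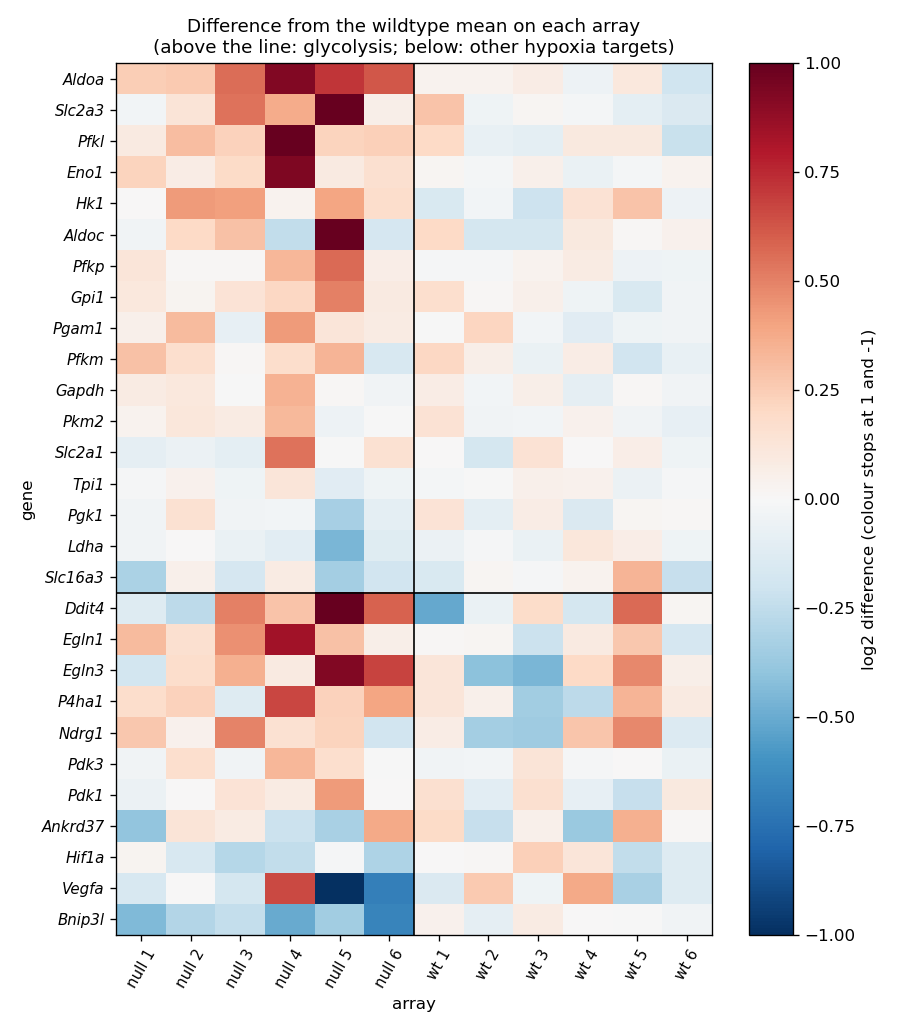
Log2 difference of each tested gene from its wildtype mean on each array, null samples at left of the vertical line and wildtype samples at right, glycolysis above the horizontal line and other hypoxia genes below. Aldoa is red and Bnip3l blue across all 6 null columns, and the strongest single cells lie in null 4 and null 5.

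The rest of the pathway was read from further lists, whose members are not among the 35. None of the genes in them was called by their brightest probe. Of 13 tested isozymes and regulators of glycolysis 0 were called, with 6 at an unadjusted p under 0.05, all higher in null cells, against 18.1% of all tested probes in either direction. Arrdc4, among the 6, passed the filter through null arrays alone (5 of 6 null and 0 of 6 wildtype), so the filter favoured its direction. Arrdc4 also counts in the per-array mean of this list. Pfkfb4, which sets the activator of phosphofructokinase, read 6.26 to 8.08 in null and 6.07 to 6.25 in wildtype cells (difference 0.90, SE 0.28, limma adjusted p = 0.13). Eno3, the muscle enolase, read 6.78 to 7.98 in null and 6.16 to 6.73 in wildtype cells (difference 0.60, SE 0.19, limma adjusted p = 0.13). Slc2a6, a glucose transporter family member found in white blood cells, read 7.49 to 11.98 in null and 6.90 to 7.65 in wildtype cells (difference 1.95, SE 0.61, limma adjusted p = 0.13). All 3 were highest in null 5. The per-array mean of this list was 1.25 in null 5, 1.00 in null 3 and 0.60 in null 6, against -0.075 to 0.12 in wildtype samples. The T and NK markers stood at 2.20, 1.86 and 1.46 in the same 3 null arrays. In the same order the interferon genes stood at 3.80, 1.95 and 2.93 and the plasmacytoid dendritic markers at 2.47, 0.94 and 1.52. Myeloid markers stood at 0.34, 3.49 and -0.26 there. The part of any of these was not tested.

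In the pentose phosphate branch 0 of 7 genes were called by their brightest probe, with 2 at an unadjusted p under 0.05, both lower. They were Rpe, an epimerase (difference -0.31, limma adjusted p = 0.22), and Pgls, the lactonase (-0.20, limma adjusted p = 0.22), and Rpia, an isomerase, came next (-0.24, limma adjusted p = 0.36). The probes of Pgls disagreed. Its 3 dimmer probes differed by -0.80, -0.87 and -0.69, and the middle one of these, chosen after its value was seen, was called (5.76 ± 0.36 in null and 6.63 ± 0.24 in wildtype cells, limma adjusted p = 0.022).

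Pyruvate dehydrogenase and its regulators had 0 of 8 called and 1 at an unadjusted p under 0.05, the phosphatase Pdp1 (difference -0.31, limma adjusted p = 0.25), with Pdk2 at 0.17 and the pyruvate carrier Mpc2 at -0.10. Regulators of the hypoxia factor had 0 of 10 called and 0 at an unadjusted p under 0.05, with a median of -0.079. In that list the partner subunit Arnt differed by -0.11, the co-regulator Cited2 by 0.16 and the ligase subunit Tceb1 by -0.14. Of 19 other targets of the factor 0 were called and 7 had an unadjusted p under 0.05, 5 higher and 2 lower. Pfkfb3 and Pfkfb4 stand both here and among the isozymes and regulators of glycolysis, and Pfkfb4 is counted as higher in both lists. Car12, a carbonic anhydrase, read 8.46 to 9.91 in null and 7.88 to 8.48 in wildtype cells (difference 0.79, SE 0.23, limma adjusted p = 0.11). Kdm3a, a histone demethylase, differed by -0.30 (limma adjusted p = 0.12), the opposite sign to Car12 and Pfkfb4, so these targets shared no direction.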

How the data were processed

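Arrays were Illumina mouse BeadChips. Per the file headers, GenomeStudio 1.8.0 exported the deposited linear intensity of each probe, its bead number and a detection score, the fraction that 1 minus the deposited detection p-value gives. The deposited log2 values were made by the authors with limma's neqc, per the notes deposited with them, and R 2.15.1, limma 3.12.1 and BeadStudio are credited in the submitters' processing notes. The genome build was not given in the sources used here.

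From the intensity values, background was corrected with the 936 negative controls (normexp), arrays were quantile normalized with an offset of 16 and log2 was taken (limma 3.58.1, R 4.3.3), within 5e-09 of the authors' values. Probes with a detection p under 0.05 on at least 3 of 12 arrays (17607 of 45281) were fitted with lmFit and eBayes, null minus wildtype, no covariate, Benjamini-Hochberg over all tested probes. The median standard error from beads within an array was 0.0361 to 0.0781 log2 per gene. The fit was tried on simulated data with independent noise of equal spread in both genotypes. The arrays here vary more in null cells, so that run gives no error rate for them. All tested genes of the 2 lists were named, with Smchd1 and up to 3 genes of smallest p in each further list, and Pgls probes were added after seeing them. The genes and lists were chosen with earlier results of these data known. Older symbols were matched by hand. Correlations of same-numbered samples ran from -0.294 to 0.0849. Same-numbered samples always lay on different BeadChips, so these values cannot tell whether the numbers pair samples. Alternatives were other scaling, background and filters, a block for BeadChip or for replicate number, fits within either BeadChip, array weights, arrays left out and the mean over probes. Leaving out null 4 and null 5 together was chosen after seeing the data.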

Additional observations from a re-analysis of the deposited data

Results flagged for a closer look

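In 60 groups of 6 arrays (28 genes and 2 list means in each genotype), 6 had an array whose gap to its nearest neighbour was a share of the group's range over Dixon's 95% critical value, where chance gives about 1 in 20 groups. In 4 of them the array was null. Null 4 stood high for Pfkl (10.77, the other null arrays 9.82 to 10.05), Eno1 (12.66, the others 11.80 to 11.95) and Gapdh (13.30, the others 12.93 to 13.07). Null 5 stood low for Ldha (13.06, the other null arrays 13.39 to 13.51). Wildtype 2 stood high for Pgam1 (9.46, the other wildtype arrays 9.13 to 9.24) and wildtype 3 for Pdk3 (8.72, the others 8.52 to 8.59). All 3 null 4 values are of glycolytic enzymes.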

How the results depend on the processing

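The glycolysis mean (0.15) stayed positive under all 25 alternatives, between 0.12 and 0.17 with any 1 array left out and lowest, at 0.086, without null 4 and null 5. The authors' values, no filter on dim probes and the BeadChip or replicate block could not move either list mean, so these runs are no check of it. The other hypoxia mean (0.075) was 0.051 to 0.11 with any 1 array left out, 0.17 on BeadChip 1 alone and -0.022 on BeadChip 2 alone. Smchd1 stayed called throughout.

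The Aldoa call, the only glycolysis gene called, was lost (0 called) with no filter on dim probes, where more probes share the adjustment (limma adjusted p = 0.072), on BeadChip 1 (0.18) or BeadChip 2 alone (0.39), with the replicate block (0.10), without null 3 and null 5 (0.10) and without null 4 and null 5 (0.058), and it ranged from 0 to 1 called with any 1 array left out. The Bnip3l call was lost (0 called) on BeadChip 1 (0.27) or BeadChip 2 alone (0.37) and with the replicate block (0.098), and ranged from 0 to 1 with any 1 array left out. Most of these runs hold fewer samples, and the cause was not tested further. No other tested gene of the 2 lists was called under any alternative, and of the further lists' genes Pgls passed over all its probes (limma adjusted p = 0.041).

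Counts of all probes higher and lower, 94 and 121 in the main setting, were 49 and 52 with no filter, 7 and 5 on BeadChip 1, 33 and 10 on BeadChip 2, 64 and 40 with the replicate block, and 190 and 190 with array weights. Without null 4 and null 5 they were 169 and 140, and with any 1 array left out 40 to 136 and 28 to 189.

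Signs turned for some genes, none of them called. On BeadChip 2 alone these were Slc2a1 (-0.092), Tpi1 (0.0055), Pgk1 (0.065), Egln3 (-0.13), Ddit4 (-0.094) and Cited2 (-0.0057). With array weights Ankrd37 was 0.041. With any 1 array left out Ankrd37 ran from -0.14 to 0.013, Slc2a1 from -0.019 to 0.11 and Tpi1 from -0.034 to 0.012. Without null 3 and null 5 Aldoc was -0.062 and Tpi1 0.026, and without null 4 and null 5 Slc2a1 was -0.024 and Ankrd37 0.049. Over all probes of the gene Tpi1 was 0.024 and Arnt 0.0029. Same-numbered samples did not deviate together, and 0 of 6 null samples matched best with their own number. All such pairs span both BeadChips, and BeadChip was not removed first, so whether the numbers pair samples stays unknown. Genes near background, such as Hk1, Aldoc, Slc16a3, Egln3 and Ndrg1, are limited by signal.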
